A study of Mus musculus with 4 samples.

Results

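The ribosomal protein genes were taken as every gene row whose symbol starts with Rpl or Rps followed by a digit, or with Rplp, without the kinase genes of the Rps6k family and without pseudogene names holding -ps. This rule gave 85 of 32265 genes. They comprise 49 symbols of the large subunit, 33 of the small subunit and 3 of the stalk. Of the 85, 76 are core members, 8 are paralogues of core members, and Rps19bp1 encodes a binding partner of RPS19 rather than a ribosomal protein. Transcripts were counted in single cells by inDrop, a droplet method that tags each captured transcript with a unique molecular identifier (UMI). The source was bone marrow of C57BL/6 mice, sorted for cells without lineage markers that carry Sca1 and cKit (LSK), the gate of haematopoietic stem and multipotent progenitor cells. The 4 groups, with 1 library each, were CML imatinib, WT imatinib, CML untreated and WT untreated. CML stands for chronic myeloid leukaemia, and the labels do not give the allele or transgene of the model or the number of mice behind a library. Imatinib inhibits the ABL and KIT kinases. Treated mice received 400 mg/kg through gavage, with a day between doses, over 30 days, or over 4 weeks according to a further label. With 1 library a group no difference has a replicate check and no test was made. The 95% intervals below are exact and cover counting error only.

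A ribosome is built from ribosomal RNA and about as many ribosomal proteins as there are core members here, most of them present once per particle. Their messages usually begin with a run of pyrimidines, through which mTOR signalling controls their translation as a group. Haematopoietic stem cells are known for a low rate of protein synthesis, and loss of a single copy of several of these genes causes Diamond-Blackfan anaemia in humans, a failure of red cell production. Mammalian genomes carry many processed copies of ribosomal protein genes, so that reads from the ends of these transcripts may fit several places in the genome.

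The kept cells numbered 5139 for CML imatinib, 4187 for WT imatinib, 3032 for CML untreated and 3030 for WT untreated, with 9540004, 8245224, 21283108 and 13153658 UMIs in the same order. The median was 1198 and 1486 UMIs per cell in the CML and WT imatinib libraries, against 5160.5 and 3637.5 in the CML and WT untreated libraries. Kit, the cKit receptor gene, stood between 136 and 176 counts per 1000000 UMIs (CPM) in the 4 libraries. Ly6a, which encodes Sca1, had 51.0 CPM in the CML imatinib and 49.6 in the WT imatinib library, against 95.8 in the CML untreated and 192 in the WT untreated library. The summed markers of granulocyte-monocyte progenitors (10 of 10 genes detected in each library) were at 20979 and 27767 CPM with imatinib, against 6204 and 6677 CPM without it. Neutrophil markers (10 of 10 detected) were at 9499 and 6412 CPM, against 74.5 and 50.7 CPM. Plasma cell markers ran the other way, at 186 and 1156 CPM against 7054 and 24316 CPM. The part of this difference in cell make-up in the values below was not tested, except where values within a cluster of cells are given. Cell names were shared between libraries: 1135 names of the WT imatinib library also occur in the WT untreated library, and the other pairs share 80 to 340. Each header held more cell names than there were columns of values, so which cell bears which name is uncertain. The profiles of same-named cells were no more alike than those of other cells, with a median correlation across genes of 0.312 against 0.317. With the names shifted by 1 column it was 0.315 against 0.320. Without the cells whose name occurs in another library the summed log2 ratios given below were 0.40 for CML imatinib over CML untreated and 0.27 for WT imatinib over WT untreated.

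The ends of the coding sequences of 3 members are shown beside those of close copies, because these members stand apart from the rest in their ratios and their ends, like those of most members, are repeated elsewhere in the genome. Each line gives the last 60 coding bases with the stop codon, from GENCODE vM21 on GRCm38, 5′ to 3′ on the gene's own strand. Capitals mark bases that differ from the member.
Rps18, small subunit, chr17:33952043-33952102, minus strand: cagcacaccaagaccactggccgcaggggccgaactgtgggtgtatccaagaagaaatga
Gm10260, copy of Rps18, chr13:97760130-97760189, minus strand: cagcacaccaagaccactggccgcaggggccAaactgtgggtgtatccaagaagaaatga
Gm11361, copy of Rps18, chr13:28258035-28258094, plus strand: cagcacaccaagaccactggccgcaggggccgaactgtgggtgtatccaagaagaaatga
Rpl10, large subunit, chrX:74273008-74273067, plus strand: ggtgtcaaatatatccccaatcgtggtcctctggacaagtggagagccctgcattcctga
Rpl10-ps3, copy of Rpl10, chr9:50344297-50344356, minus strand: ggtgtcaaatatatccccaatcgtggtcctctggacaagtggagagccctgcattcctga
Rplp1, stalk, chr9:61913324-61913383, minus strand: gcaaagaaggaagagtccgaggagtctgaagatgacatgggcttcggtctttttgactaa
Gm10073, copy of Rplp1, chr8:106573006-106573065, minus strand: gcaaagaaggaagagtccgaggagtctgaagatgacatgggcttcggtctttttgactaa
Gm10260 differs from Rps18 at 1 of these 60 bases. Gm11361, Rpl10-ps3 and Gm10073 differ from their members at 0 of them.

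Promoters are shown for 4 members, the most abundant with an entry, Rps23, the abundant Rpl15, and the pair with the highest imatinib ratios, Rps18 and Rpl9. RefSeq promoter windows on GRCm38.p6, from 250 bases before to 50 bases after the start, matched 65 of the 85 members. The letter strings searched on both strands were CTTTCC, a stretch of pyrimidines, CCGGAAG, a form of the site of ETS-family factors, TATAAA, the TATA box, and AAGATGGC, a form of the YY1 site. The strings do not overlap in the printed windows, which run from 70 bases before the start through 30 bases from it. Capitals mark a match.
Rps23, chr13:90923052-90923151, plus strand: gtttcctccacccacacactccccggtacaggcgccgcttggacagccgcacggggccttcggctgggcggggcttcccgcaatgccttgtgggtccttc
Rpl15, chr14:18270957-18271056, minus strand: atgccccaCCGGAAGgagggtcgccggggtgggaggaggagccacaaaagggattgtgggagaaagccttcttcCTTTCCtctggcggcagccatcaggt
Rps18, chr17:33955636-33955735, minus strand: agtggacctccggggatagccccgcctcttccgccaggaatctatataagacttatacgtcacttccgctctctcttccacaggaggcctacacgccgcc
Rpl9, chr5:65391402-65391501, minus strand: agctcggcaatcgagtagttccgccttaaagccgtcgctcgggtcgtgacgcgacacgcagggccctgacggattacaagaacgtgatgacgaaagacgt
CTTTCC stood in 49.2% of the 65 member windows and in 26.3% of all 27025 promoter windows. Within 20 bases of the start and on the gene's own strand it stood in 16.9% of member windows and 1.90% of all. CCGGAAG was found in 36.9% of member windows and 9.12% of all, AAGATGGC in 7.69% and 2.88%, and TATAAA in 9.23% and 14.2%. A match is a description of the letters, not a site in use.

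Ribosomal protein transcripts took a larger share of all UMIs in both imatinib libraries. The share was 14.7% (interval 14.66 to 14.70) in the CML imatinib library and 15.7% (15.71 to 15.76) for WT imatinib. It was 11.1% (11.13 to 11.16) in the CML untreated and 13.03% (13.01 to 13.04) in the WT untreated library. The sum over the 85 members was thus 1.32-fold higher in CML imatinib than in CML untreated cells, a log2 ratio of 0.40 (0.39 to 0.40), and 1.21-fold higher in WT imatinib than in WT untreated cells, a log2 ratio of 0.27 (0.27 to 0.28). The ratio in CML minus that in WT was 0.12. A change in the number of these transcripts per cell cannot be told apart here from a change in all other transcripts, because a share was measured. A median cell held 175 ribosomal protein UMIs in the CML imatinib library and 225 in the WT imatinib library, against 593 in the CML untreated and 507.5 in the WT untreated library, following the depth of the libraries.

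Depth differed between the libraries, so shares were also read within bins of UMIs per cell. The deposited cells started at 200 UMIs in both imatinib libraries, but at 1006 in the CML untreated and 1001 in the WT untreated library. A difference in how cells were selected before deposit can therefore not be told apart from treatment. Among cells of 1000 to under 2000 UMIs the share was 14.9% in CML imatinib against 12.04% in CML untreated cells, and 15.2% in WT imatinib against 14.1% in WT untreated cells. Among cells of 8000 or more UMIs it was 15.1% against 10.7% in CML, and 16.2% against 11.4% in WT, the 16.2% resting on 17 cells. Of these deep cells 72 of 92 in CML imatinib and 56 of 931 in CML untreated belong to an erythroid-like cluster described below. Without that cluster the shares were 13.97% against 10.8% in CML, the 13.97% resting on 20 cells. The imatinib library was the higher of each pair in every bin that both held. With only cells of 1000 to 3000 UMIs, each thinned to 1000, the log2 ratio was 0.34 in CML and 0.11 in WT, so the WT value moved by over 1.5 times.

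**Figure D1:**
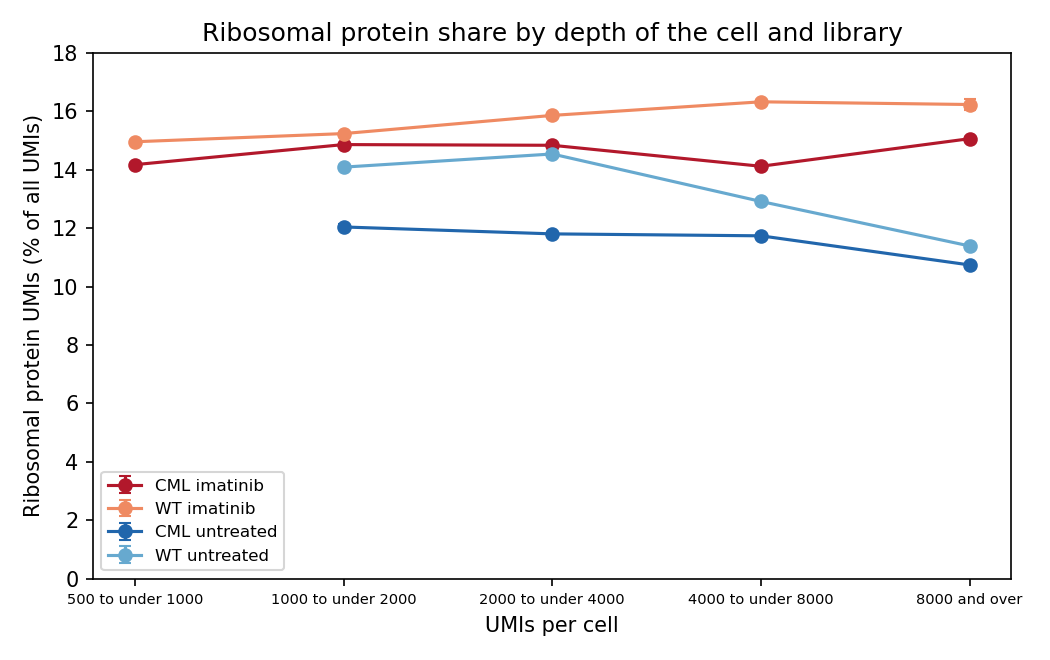
Ribosomal protein UMIs as a percent of all UMIs (y axis) in cells grouped by UMIs per cell (x axis), with 1 line a library and exact 95% intervals that are mostly smaller than the points. The untreated libraries hold no kept cell under 1000 UMIs; in the shared bins the CML imatinib line lies above the CML untreated line and the WT imatinib line above the WT untreated line, with the smallest gap between the WT libraries below 4000 UMIs.

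The scaling sets the size of this shift. Scaling by the trimmed mean of M values (TMM) lowered every gene's log2 ratio by the same amount, moving it by -0.32 in the CML and by -0.25 in the WT imatinib comparison. The summed ratio was then 0.08 in CML and 0.02 in WT, and 45 and 46 of the 77 members tested lay above 0, against 66 and 62 of 77 in CPM. A value that no scaling moves is the distance to the other genes: the median of the 77 members tested lay 0.46 above the median of all genes tested in CML and 0.42 above it in WT. These member medians were 0.41 (quartiles 0.12 and 0.68) in CML and 0.37 (0.15 and 0.61) in WT. The medians of all genes tested were -0.05 in both, and 46.9% and 46.7% of all genes lay above 0. A gene was tested if its higher library had 50 CPM and 50 UMIs or more, which 77 of the 85 members reached in both comparisons. Rpl35, Rps27, Rpl27, Rps12, Rps19bp1, Rps27rt, Rpl39l and Rpl3l did not.

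The summed ratio was larger for the small than for the large subunit, while the medians of their members were close. Summed over the 33 small-subunit symbols the log2 ratio was 0.48 in CML imatinib over CML untreated and 0.33 in WT imatinib over WT untreated. Over the 49 large-subunit symbols, among them the abundant Rpl7 and Rpl15 described below, it was 0.29 and 0.19. Under TMM scaling the small-subunit sums were at 0.16 and 0.08 and the large-subunit sums at -0.03 and -0.06. The median of the 29 small-subunit members tested was 0.43 in CML and 0.31 in WT, and that of the 45 large-subunit members 0.40 and 0.36. The small subunit gave 51.0% of ribosomal protein UMIs in the CML imatinib and 51.7% in the WT imatinib library, against 48.3% in the CML untreated and 49.8% in the WT untreated library. Without the 9 outlying members described below the sum over all others still shifted by 0.38 and 0.26.

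The most abundant member was Rps23, a small-subunit protein of the decoding centre. It had 8439 CPM in CML imatinib and 8706 in WT imatinib cells, against 5518 in CML untreated and 7476 in WT untreated cells, log2 ratios of 0.61 in CML and 0.22 in WT. Rps29, a small zinc-binding protein of the same subunit, had 4592 and 5903 CPM with imatinib in CML and WT, against 3437 and 4124 without, ratios of 0.42 and 0.52. Rps27a, made as a fusion to ubiquitin, had 3837 and 4681 CPM against 3059 and 3534, and Rpl27a of the large subunit 3861 and 4383 against 3176 and 3603. In all 4 of these genes both imatinib libraries stood above both untreated ones. Rpl15, a large-subunit protein and the third in mean level, went the other way, with 3091 CPM in CML imatinib and 3368 in WT imatinib cells, against 3973 in CML untreated and 4895 in WT untreated cells. Its log2 ratios were -0.36 and -0.54.

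The core members at the low end had low counts, and Rpl35, Rps27, Rpl27 and Rps12 stayed under 50 CPM in every library. Rpl35 had 8.91 and 6.31 CPM in the CML and WT imatinib libraries, against 1.32 and 1.14 CPM in the CML and WT untreated libraries. Rps27 had 7.44 and 6.43 CPM against 11.3 and 11.1, Rpl27 23.2 and 28.5 against 21.1 and 12.2, and Rps12 45.0 and 38.2 against 13.9 and 12.4. Rpl11, a large-subunit protein that binds MDM2, had 118 and 85.6 CPM against 54.0 and 44.5. In the mean of the 4 libraries core members ranged from 4.42 CPM for Rpl35 to 7535 CPM for Rps23. This range of counts was not compared with protein, and its cause was not tested. UMIs count each transcript once, so no level was divided by length.

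In the CML imatinib comparison 10 members were higher and 2 lower by 2-fold or more, where 9.4% of all 4265 genes tested were called higher and 7.95% lower. In WT 9 members were higher and 1 lower, where 7.58% and 5.45% of all 4092 genes were. Together the called members were 15.6% of those tested in CML and 12.99% in WT, beside 17.4% and 13% of all genes in either direction, so large changes were about as common among ribosomal protein genes as elsewhere. The CML and WT ratios of the 77 members with 50 CPM in a library are shown together in the plot of both ratios, and 71 of them (92.2%) had the same sign in both, beside 81.8% of all 4420 genes with 50 CPM in a library.

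**Figure D2:**
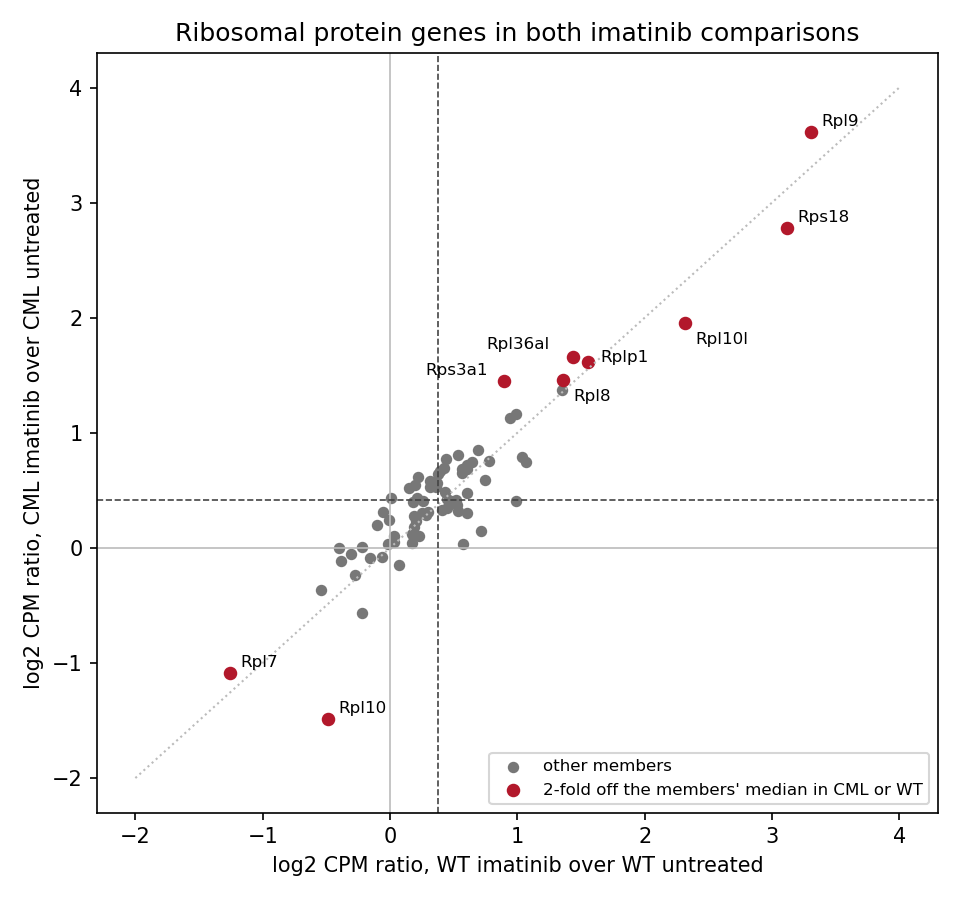
Each point is 1 of the 77 ribosomal protein genes with at least 50 CPM in a library, at its log2 CPM ratio in WT (x axis) and in CML (y axis), imatinib over untreated; dashed lines mark the medians of the 82 members with 10 CPM, 0.37 in WT and 0.41 in CML, and the dotted line equal ratios. Most points lie close to the medians, with Rpl9 and Rps18 far above and Rpl7 and Rpl10 below.

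A member was called outlying when its log2 ratio lay at least 1 away from the members' own median, that is 2-fold off the shared shift. That median was taken over the 82 members with at least 10 CPM in either library and was 0.41 in CML and 0.37 in WT. In CML 9 members were outlying, Rpl9, Rps18, Rpl10l, Rpl36al, Rplp1, Rpl8 and Rps3a1 above and Rpl7 and Rpl10 below; of all genes tested, 17.1% lay as far from their own median, 9.94% above and 7.2% below. In WT 6 were outlying, Rpl9, Rps18, Rpl10l, Rplp1 and Rpl36al above and Rpl7 below, beside 13.9% of all genes, 8.63% above and 5.25% below. All 6 are among the 9 of CML, so the overlap is 100% of the WT list and 66.7% of the CML list. Of all genes tested, 396 lay 2-fold off the median in the same direction in both, 69.7% of the WT and 54.2% of the CML list of such genes. Outlying by a small margin in CML were Rps3a1 and Rpl8 with ratios of 1.45 and 1.46, while Rpl24 with 1.37 and Rps27l with -0.56 fell just short. In WT Rpl36al was outlying by a small margin with 1.44, while Rpl8 with 1.36 and Rpl15 with -0.54 fell just short. The CML list dropped to 7 without the erythroid-like cells, a cell class treated below, as Rpl8 and Rps3a1 then fell short of the limit.

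**Figure D3:**
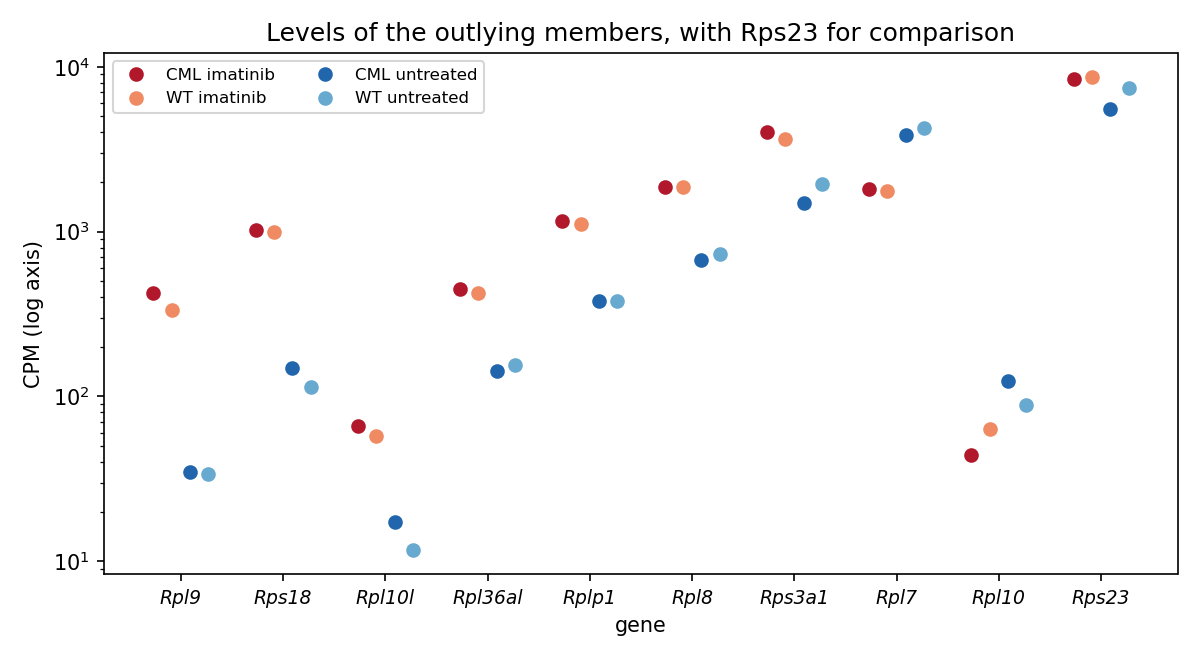
CPM on a log axis (y) of the 9 outlying members and of Rps23 (x), with 1 point a library. In Rpl9, Rps18, Rpl10l, Rpl36al, Rplp1, Rpl8 and Rps3a1 both imatinib libraries lie above both untreated ones, and in Rpl7 and Rpl10 below them.

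Rpl9, a large-subunit protein (chromosome 5, 65388364 to 65391444, minus strand, GRCm38), had the highest ratio of the members tested. Its level was 424 CPM in CML imatinib and 335 CPM in WT imatinib cells, against 34.7 CPM in CML untreated and 33.8 CPM in WT untreated cells. The log2 ratio was 3.61 in CML and 3.31 in WT. Rps18, a protein of the head of the small subunit (chromosome 17, 33951999 to 33956001, minus strand), had 1020 CPM in CML imatinib and 996 CPM in WT imatinib cells, against 149 CPM in CML untreated and 115 CPM in WT untreated cells. Its ratios were 2.78 and 3.12. In both genes the imatinib libraries were alike and the untreated libraries were alike, with a wide gap between the treatments.

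Rpl7 (chromosome 1, 16101295 to 16104662, minus strand), a large-subunit protein, was outlying in the opposite direction. It had 1803 CPM in CML imatinib and 1766 CPM in WT imatinib cells, against 3841 CPM in CML untreated and 4231 CPM in WT untreated cells, ratios of -1.09 and -1.26. Rpl10, which joins the large subunit late and completes it, had 44.0 and 63.7 CPM against 124 and 89.1 CPM, ratios of -1.49 in CML and -0.48 in WT. Rpl8, a large-subunit protein close to the site of peptide bond formation, had 1852 and 1861 CPM with imatinib in CML and WT, against 673 and 727 CPM without. Rps3a1 of the small subunit had 4039 and 3629 CPM against 1482 and 1946 CPM, ratios of 1.45 and 0.90.

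The stalk of the large subunit binds the elongation factors, with Rplp0 as its base and pairs of Rplp1 and Rplp2 as its arms. Summed over the 3 genes it shifted by 0.79 in CML and 0.64 in WT, but unevenly. Rplp1 had 1162 CPM in CML imatinib and 1107 CPM in WT imatinib cells, against 379 CPM in CML untreated and 377 CPM in WT untreated cells, ratios of 1.61 and 1.55. Rplp0 had 3421 and 3225 CPM against 2000 and 2378 CPM, ratios of 0.77 and 0.44. Rplp2 had 657 and 889 CPM against 641 and 599 CPM, ratios of 0.04 and 0.57. Only Rplp1, 1 of the 3, was 2-fold apart in either comparison, beside 17.4% of all genes tested in CML and 13% in WT.

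Shared sequence was measured as the share of 40-base words in the last 300 bases of a member's transcripts that also occur in another annotated gene. The 7 outlying core members shared a median of 74.4% of these words with other genes, with a range of 28.0% for Rpl8 to 92.6% for Rpl10, and the other core members a median of 50.6%. Of the outlying paralogues, Rpl10l shared 0.0% and Rpl36al 68.6%. Of the 76 core members, 63 shared more than 20%, and all 7 outlying core members, 9.21% of the 76, were among them. The 13 that shared 20% or less, which include Rps23, Rpl4 and Rps3, had a median log2 ratio of 0.40 in CML (-0.09 to 0.81) and 0.22 in WT (-0.16 to 0.75). The 17 core members with a copy that has a gene row of its own had a median level of 256 CPM, and the 59 without such a copy 1918 CPM. How the authors divided reads between members and copies is not given in the sources used, so levels of members with many copies are uncertain, and the part of shared sequence in the outlying ratios was not tested.

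The copies printed above were counted at low levels. Gm10260, 1 base from Rps18, had 54.5 and 30.6 CPM in the CML and WT imatinib libraries, against 5.22 and 4.11 CPM in the CML and WT untreated libraries, and reached the floor of 50 CPM in CML alone, with a ratio of 3.39. Gm11361, with the same end as Rps18, had 2.41 and 4.37 CPM against 7.33 and 6.23 CPM, under that floor. Rpl10-ps3 had 170 and 137 CPM in the CML and WT imatinib libraries, against 119 and 123 CPM in the CML and WT untreated libraries, ratios of 0.51 and 0.16. It stood above Rpl10 in both imatinib libraries and in the WT untreated library, and just below Rpl10 in the CML untreated library. The ratio of Rpl10 and this copy summed was not taken. Gm10073 had 11.3 and 9.46 CPM against 5.69 and 6.77 CPM, again under the floor.

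Of 9 listed paralogues 8 had a row and 5 were tested. Rpl10l, a copy of Rpl10 without introns that stands in for it in mouse male germ cells, had 66.6 CPM in CML imatinib and 57.9 CPM in WT imatinib cells, against 17.2 CPM in CML untreated and 11.6 CPM in WT untreated cells, ratios of 1.95 and 2.31. Rpl36al, a near twin of the X-linked Rpl36a, had 446 and 424 CPM against 142 and 156 CPM, ratios of 1.65 and 1.44. These were the 2 of 5 tested paralogues at least 2-fold higher in either comparison. Of all genes tested, 9.4% were called higher in CML and 7.58% in WT. Rpl22l1 had 570 and 681 CPM against 552 and 668 CPM, and Rpl7l1 115 and 124 CPM against 92.3 and 85.8 CPM. Rps27l, a p53 target in humans and mice, had 375 and 446 CPM against 554 and 519 CPM, ratios of -0.56 and -0.22. The other 3, Rps27rt, Rpl39l and Rpl3l, stayed under 50 CPM in every library.

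The 4 X-linked members were Rpl10, described above, Rpl36a, Rpl39 and Rps4x. Rpl36a had 241 CPM in both imatinib libraries, against 217 CPM in CML untreated and 146 CPM in WT untreated cells. Rpl39, at the exit tunnel, had 2875 and 3352 CPM against 1790 and 2209 CPM, ratios of 0.68 and 0.60. Rps4x had 1706 and 1658 CPM against 947 and 1026 CPM, ratios of 0.85 and 0.69. Xist, transcribed from the inactive X of female cells, stood at 94.97 CPM in CML imatinib and 3.15 in WT imatinib, against 2375 in CML untreated and 1.52 in WT untreated cells. Ddx3y, a Y-linked gene, had 45.2 and 29.4 CPM with imatinib in CML and WT, against 1.504 CPM in CML untreated and 43.6 CPM in WT untreated cells. Sex can therefore not be told apart from treatment in the CML imatinib comparison, nor from genotype among untreated cells.

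The 13 genes listed for human disease, most of them Diamond-Blackfan anaemia genes, had a median log2 ratio of 0.28 in CML and 0.19 in WT, within the quartiles of all members tested. In CML 1 of 13 was at least 2-fold higher, Rpl11 with a ratio of 1.13, and 1 lower, Rpl10, beside 9.4% and 7.95% of all genes, and in WT 0 and 0, beside 7.58% and 5.45%. Rps19, the gene most often mutated in that anaemia, had 2217 and 2548 CPM against 1790 and 2068 CPM, ratios of 0.31 and 0.30. Rps14, tied to the anaemia of a human myelodysplastic syndrome, had 2638 and 3080 CPM against 2579 and 3121 CPM, ratios of 0.03 and -0.02. Rpl5, the partner of Rpl11, had 1877 and 1852 CPM against 1943 and 2294 CPM, ratios of -0.05 and -0.31. Ratios of Rps7 were 0.41 and 0.99, of Rps10 0.47 and 0.60, of Rps24 0.49 and 0.43 and of Rps26 0.28 and 0.19. Those of Rpl22 were -0.09 and -0.16, of Rpl26 0.75 and 0.64 and of Rpl35a 0.01 and -0.22.

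In CPM, the summed members were lower in CML than in WT cells of the same treatment. In CML untreated cells the summed members stood at 0.856 of the WT untreated level, a log2 ratio of -0.23, and in CML imatinib cells at 0.933 of the WT imatinib level, a ratio of -0.10. These ratios are smaller than those between treated and untreated cells in CPM, and larger under TMM scaling, at -0.39 and -0.34. That scaling moved every gene by -0.17 in the untreated and by -0.24 in the imatinib comparison. The median of the members tested lay -0.21 from the median of all genes tested in the untreated comparison, and -0.06 from it in the imatinib comparison. In cells of 1000 to 3000 UMIs thinned to 1000 the summed ratios were -0.30 and -0.062. Of the members tested 21 of 75 lay above 0 in the untreated and 25 of 77 in the imatinib comparison, beside 54.8% and 47.1% of all genes. Here 0 members were 2-fold apart in either, where 0.915% and 2.5% of all genes tested were called. Higher calls made up 0.523% and 2.32% and lower calls 0.392% and 0.179% of all genes. None of the members lay 2-fold off their median, a count of 0 where 0.889% and 2.55% of all genes lay that far off, 0.471% and 2.38% above and 0.418% and 0.179% below. Rps23 was at -0.44 and -0.04, Rps13 at -0.43 and -0.04, and Rpl30 at -0.43 and -0.09. Rps7 had the largest positive ratio of the tested members in untreated cells, 0.71, with 393 CPM in CML and 240 CPM in WT. The comparisons share libraries: the CML untreated library stands in 2 of the 4, as does each of the others.

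Cells were placed in 15 clusters made without ribosomal protein genes, of which 11 could be named from marker genes. Cluster 2, led by Mpo and Elane and named granulocyte-monocyte progenitor-like, held 44.2% of CML imatinib and 48.4% of WT imatinib cells, against 2.44% of CML untreated and 2.84% of WT untreated cells. Cluster 5, led by Dntt and Flt3 and named lymphoid-primed progenitor-like, held 2.18% and 6.64% against 64.1% and 60.8%. It also had Hlf, from the stem cell marker list, among its 10 leading genes, and 69.5% of its cells held a UMI of a lymphoid-primed marker. Its size depended on the clustering: classes of that name held 30.8% of CML untreated and 32.7% of WT untreated cells at Leiden resolution 1.0. They held 6.398% and 9.90% with values centred within each library, and 4.32% and 11.5% when cells of 1000 or more UMIs were clustered anew. A monocyte-like class, not named in the main clustering, was present in all of these alternatives. The megakaryocyte-like class of the untreated libraries was larger with centred values and with the new clusters. At resolution 1.0 it was smaller, at 16.5% of CML untreated and 15.5% of WT untreated cells, against 18.3% and 19.5% in the main clustering. Different clusters thus hold most of the cells of the treated and untreated libraries, and values within a cluster are given with that limit. The ribosomal protein share was lowest in neutrophil-like, plasma cell-like and stroma-like cells. It was 4.59% in CML imatinib and 5.88% in WT imatinib neutrophil-like cells, 4.18% in CML untreated and 4.45% in WT untreated plasma cell-like cells, and 4.44% in the 34 stroma-like cells of the CML imatinib library. T cell-like cells had 10.5% in CML untreated and 12.7% in WT untreated cells, within the range of the progenitor clusters, 9.48% to 16.6%.

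**Figure D4:**
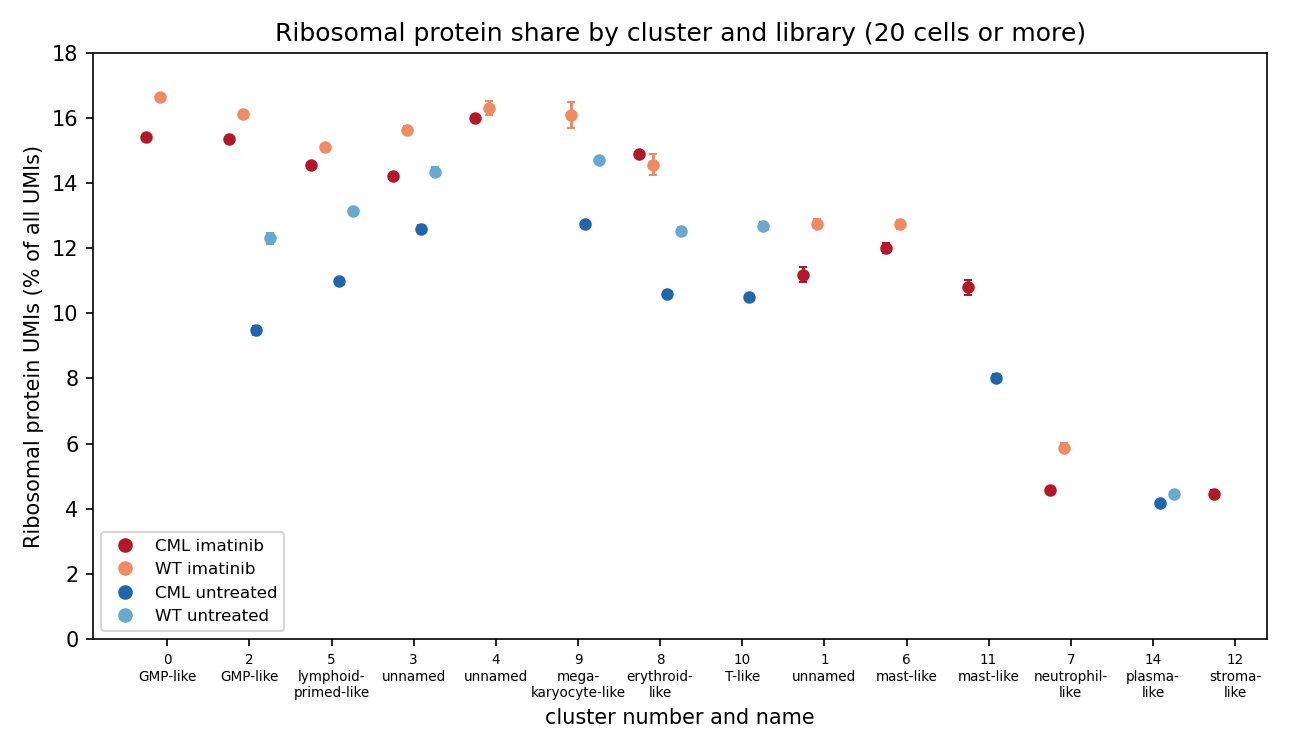
Ribosomal protein UMIs as a percent of all UMIs (y axis) in each cluster with at least 20 cells in the library (x axis, number and name), with 1 point a library and exact 95% intervals. In clusters 2, 5, 8 and 9 the imatinib points present lie above the untreated points, in cluster 3 they do so within each genotype only, and neutrophil-like, plasma-like and stroma-like cells lie under 6%.

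Within clusters the imatinib library of each genotype kept the higher share. In cluster 2 it was 15.4% in CML imatinib against 9.48% in CML untreated cells, a log2 ratio of 0.70, and 16.1% in WT imatinib against 12.3% in WT untreated cells, a ratio of 0.39. In cluster 5 it was 14.6% against 10.99% in CML, a ratio of 0.41, and 15.1% against 13.2% in WT, a ratio of 0.20. In cluster 3, unnamed and led by Gm42418, it was 14.2% against 12.6% in CML, a ratio of 0.18, and 15.6% against 14.4% in WT, a ratio of 0.12. CML stood below WT in each cluster with 50 cells in both libraries, by log2 ratios of -0.38 to -0.19 among untreated cells and of -0.36 to -0.03 among imatinib cells.

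The outlying members kept their direction within clusters. Over the 4 clusters with at least 50 CML cells of each treatment Rps18 had ratios of 2.44 to 3.71 and Rpl9 of 2.82 to 4.15, and over the 3 with as many WT cells 3.0 to 4.02 and 3.28 to 3.41. Ratios of Rpl7 ran from -1.81 to -0.59 in CML and from -1.36 to -1.14 in WT. Rplp1 gave 1.02 to 1.65 and 1.29 to 1.53, and Rpl10 -2.26 to -1.31 and -1.03 to -0.70. In level, Rps18 had 929 CPM in CML imatinib and 907 CPM in WT imatinib cells of cluster 5, against 146 CPM in CML untreated and 113 CPM in WT untreated cells. In neutrophil-like cells, where all members were low, it still had 238 CPM in CML imatinib and 421 CPM in WT imatinib cells. Rps3a1 was less even: its CML ratios ran from 0.35 in cluster 3 to 2.78 in the erythroid-like cluster.

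In the erythroid-like cluster of the CML imatinib library the make-up of the ribosomal protein UMIs, rather than their sum, was unlike that of other cells. The sum was 14.9% of UMIs there and 14.6% in the other cells of the library. The cluster, led by Hbb-bs and Hba-a2, had 268 CML imatinib cells, 34 WT imatinib cells, 109 CML untreated cells and 52 WT untreated cells, and held 18.8%, 0.581%, 5.82% and 3.19% of these libraries' UMIs. Each member's share of ribosomal protein UMIs was compared between these cells and the other cells of the same library. In the CML imatinib library the log2 ratios had an SD over members of 0.94, against 0.29 in each of the other 3 libraries. There 14 of 77 members were at least 2-fold lower and 3 higher, where 26.5% of all genes with the same floor were called lower and 11.1% higher. The counts were 0 lower and 0 higher in WT imatinib (4.56% and 18.3% of all genes), 1 and 0 in CML untreated (15.8% and 4.45%), and 0 and 0 in WT untreated cells (13.4% and 6.53%). The members' count in CML imatinib is thus not above that of other genes.

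The members that were low had short coding sequences. Rps29, of 168 coding bases, made up 0.63% of ribosomal protein UMIs in erythroid-like cells and 3.71% in other cells of the CML imatinib library, a log2 ratio of -2.55. Rpl39, of 153 coding bases, was at -2.51, Rps28, of 207, at -2.27, and Rpl38, of 210, at -2.26. Among the longest-coded, Rps3a1, of 792 coding bases, made up 5.44% against 2.12%, a ratio of 1.36, Rplp0, of 951, was at 0.96, and Rps2, of 906, at 1.08. Across 77 members the correlation of the ratio with log2 coding length was 0.77 (Spearman's rho 0.81) in CML imatinib. It was 0.12 over 73 members for WT imatinib, 0.09 over 75 for CML untreated and 0.03 over 74 for WT untreated cells. The members in a library share its cells and depth, so these are descriptions.

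The 41 members with under 450 coding bases summed to 30.2% (30.0 to 30.3) of ribosomal protein UMIs in the erythroid-like cells and to 49.2% in the other cells of the CML imatinib library. The shares were 47.3% against 47.7% in WT imatinib, 44.8% against 46.0% in CML untreated and 45.8% against 46.6% in WT untreated cells. The 26 members of 600 or more coding bases made up 48.8% in erythroid-like and 31.7% in other CML imatinib cells. Of the other CML imatinib clusters, stroma-like cells had 34.3% from short members and the rest 48.1% to 49.9%. In erythroid-like CML imatinib cells the short share was 35.2% in the 148 cells under 2000 UMIs and 29.7% in the 93 cells of 5000 or more, while other cells of these depths had 49.3% and 47.9%. Among genes outside the family, in the CML imatinib library, the median log2 ratio of erythroid-like over other cells was -0.61 (quartiles -1.84 and 0.49) for 129 genes under 300 coding bases and -0.05 for those of 300 to under 450. It was 0.28, 0.32 and 0.27 for those from 450, 600 and 1200 bases on. In the WT imatinib library, with 34 erythroid-like cells, the medians of the shortest and longest class were -0.62 and -0.71. There every class lay between -0.74 and -0.62, and why all were below 0 was not tested. The shortest and longest class had 0.27 and 0.13 in CML untreated, and 0.19 and -0.21 in WT untreated. The genes in these classes are not the set behind the called shares given above, so the 2 cannot be compared.

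**Figure D5:**
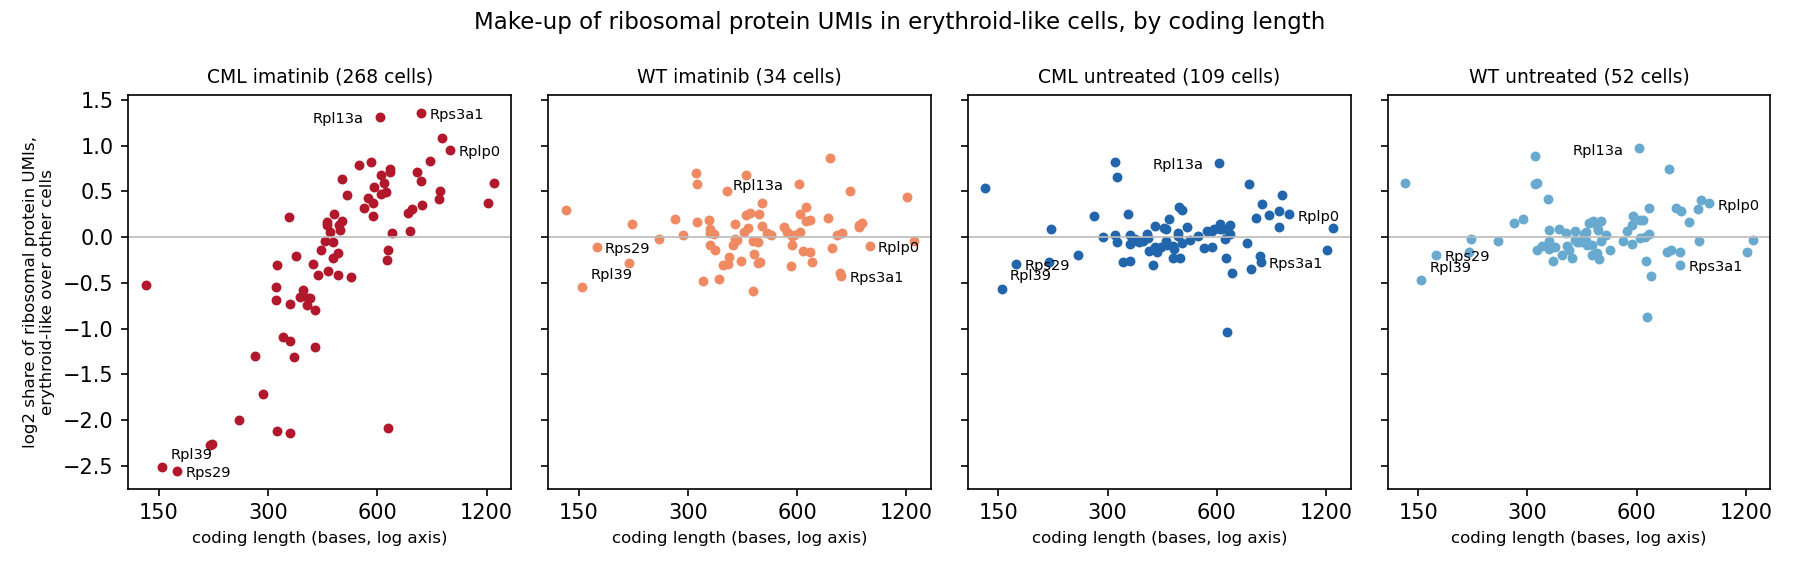
Each point is a ribosomal protein gene, with its coding length in bases on a log axis (x) and the log2 ratio of its share of ribosomal protein UMIs in erythroid-like over other cells of the same library (y), 1 panel a library. The points climb with length in CML imatinib, with Rps29 and Rpl39 at -2.55 and -2.51, and lie near 0 at all lengths in the other panels.

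The erythroid-like cells of the CML imatinib library differed from those of other libraries in further ways. Haemoglobin genes took 1.05% of their UMIs, against 0.079% of WT imatinib, 0.0090% of CML untreated and 0.011% of WT untreated UMIs in the cluster. Slc4a1, the anion exchanger of red cells, had 288 CPM in CML imatinib cells of the cluster. It had 41.7 CPM in WT imatinib cells of the cluster, resting on 2 UMIs, and 0 UMIs in untreated cells of the cluster. Kit had 67.5 CPM in CML imatinib cells of the cluster and 668 in WT imatinib cells, where it rests on 32 UMIs, against 117 in CML untreated and 152 in WT untreated cells. Xist had 425 CPM in these CML imatinib cells and 18.6 CPM in the other cells of that library, against 1660 and 2419 CPM in the CML untreated library. The Y-linked Ddx3y had 2.79 CPM in erythroid-like and 55.0 CPM in other CML imatinib cells, and the Y-linked Eif2s3y 15.6 and 47.9 CPM. The cluster thus differed in its sex-linked transcripts from the rest of its own library. The part of these differences in the make-up by length was not tested.

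Other genes of translation did not share the shift of the family evenly. Rpsa, a small-subunit protein outside the symbol rule, had 2119 and 2010 CPM in the CML and WT imatinib libraries, against 1048 and 1160 CPM in the untreated ones, ratios of 1.02 and 0.79. Rack1, which sits on the small subunit, had ratios of 0.53 and 0.07. Of the 8 elongation factors, with a median of 0.04 in CML and -0.14 in WT, 1 was 2-fold higher in CML. This was Eef2, which moves the ribosome along the message, with 1231 and 1072 CPM against 479 and 536 CPM and ratios of 1.36 and 1.0. Eef1a1, which brings the charged tRNA, had 5373 and 6264 CPM against 8018 and 6907 CPM, ratios of -0.58 and -0.14. Of 33 initiation factors tested 2 were higher and 1 lower in CML and 1 and 0 in WT, with medians of 0.08 and -0.05. These counts lie below the shares of all genes, 9.4% higher and 7.95% lower in CML and 7.58% and 5.45% in WT. Eif3f had 350 and 302 CPM against 99.1 and 122 CPM, ratios of 1.82 and 1.31.

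Mitochondrial ribosomal proteins, which build the separate ribosome of that organelle, had a median of 0.39 in CML and 0.19 in WT. Of 51 tested in CML 7 were 2-fold higher and 1 lower, and of 45 in WT 0 and 1. Of all genes tested, 9.4% were higher and 7.95% lower in CML, and 7.58% and 5.45% in WT. Mrpl28 and Mrpl12 of its large subunit had ratios of 1.30 and 1.23 in CML and 0.58 and 0.66 in WT, and Mrps6 of its small subunit -1.26 and -1.13. The 40 genes of ribosome assembly and RNA polymerase I, of which 31 and 29 were tested, had medians of -0.03 and -0.07, with Mybbp1a alone 2-fold higher at 1.16 in both. Npm1, a nucleolar chaperone, had 2409 and 2312 CPM against 3894 and 3283 CPM. The 13 genes listed as growth regulators tied to ribosome synthesis had medians of -0.23 in CML and -0.18 in WT. Of these 3 of 6 tested were 2-fold lower in CML and 1 of 5 in WT, beside 7.95% and 5.45% of all genes. Myc, which drives genes of ribosome synthesis in many cells, had 284 and 320 CPM against 794 and 546 CPM, ratios of -1.49 and -0.77. Trp53 was at -1.09 and -0.61 and Cdkn1a at -1.09 and -1.87.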

How the data were processed

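The deposited files hold, per cell, a normalized signal per gene made by the authors. Per the submitters' processing notes, the build was GRCm38 (mm10) and the tools were Bowtie 1.1.1 and Partek 8.0, their roles not given in the sources used. Each cell's values were whole multiples of its smallest value within 0.02 for 100% of entries, so dividing gave UMI counts. Cells with at least 500 UMIs, 200 genes and at most 20% mitochondrial UMIs were kept, and no doublets were removed. Counts were summed per library and scaled to 1000000 (CPM). Ratios have exact conditional binomial 95% intervals. These were checked on data simulated with counting error alone, which says nothing of variation between cells or mice. Clusters used scanpy 1.11.5 (2000 genes, 30 components, 15 neighbours, Leiden resolution 0.5), and the naming rule was set after the data were examined: at least 3 class markers among 25 leading genes, 1 among 10, and a marker UMI in 50% of cells. TMM used edgeR 4.0.16. Coding lengths and positions come from GENCODE vM21. Members, lists and tests were chosen with earlier results of these data known. Named genes are the extremes of level, the outlying members, the fixed lists and up to 4 genes of each further list. Some members are not reported here by name. Alternatives are under the processing section.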

Additional observations from a re-analysis of the deposited data

Results flagged for a closer look

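Rps15, a small-subunit protein, moved in opposite directions in the imatinib comparisons of CML and of WT, with intervals on either side of 0. Its log2 ratio was 0.20 in CML and -0.10 in WT, a difference of 0.31. With 1 library a group this difference was not tested. Under TMM scaling every CML ratio is lower by 0.32 and every WT ratio by 0.25. Both Rps15 ratios then lie below 0, so the opposite signs are not kept under that scaling.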

How the results depend on the processing

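No paired analysis was possible because each group has 1 library. The ratios summed over all members kept their sign under every alternative run. Under TMM scaling the large-subunit sums did not, going from 0.29 and 0.19 to -0.03 and -0.06 in the CML and WT imatinib comparisons. The counts of members 2-fold apart or outlying stayed within 1.5 times. They were 10 to 14 and 8 to 13 apart, and 7 to 12 and 4 to 9 outlying, in the CML and WT imatinib comparisons. Between CML and WT the counts were 0. Values below are given for CML imatinib, WT imatinib, CML untreated and WT untreated shares, then for the log2 ratios of CML imatinib over CML untreated, WT imatinib over WT untreated, CML untreated over WT untreated and CML imatinib over WT imatinib. A value is printed where it moved by more than its counting interval, which is narrow.

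With at least 1000 UMIs per cell the imatinib shares were 14.8% and 15.8%, and the first pair of ratios 0.41 and 0.28. With no cell filter the imatinib shares were 14.6% and 15.7%, and the ratios 0.39, 0.27 and, between the imatinib libraries, -0.10. With at most 10% mitochondrial UMIs the shares were 14.7%, 15.8%, 11.2% and 13.05%. With each cell thinned to 500 UMIs they were 14.5%, 15.4%, 11.6% and 13.6%, with ratios of 0.33, 0.18, -0.23 and -0.081. Without the top 5% of cells by UMIs they were 14.7%, 15.7%, 11.5% and 13.3%, with 0.35, 0.24, -0.21 and -0.091. Without mature-cell clusters they were 15.1%, 16.02%, 11.3% and 13.4%, with 0.42, 0.25, -0.25 and -0.084. In cells with a Kit UMI they were 15.1%, 16.3%, 11.1% and 13.1%, with 0.45, 0.31, -0.24 and -0.11. In cells of 1000 to 3000 UMIs thinned to 1000 they were 14.8%, 15.5%, 11.7% and 14.4%, with 0.34, 0.11, -0.30 and -0.062. TMM scaling gave 0.077, 0.021, -0.39 and -0.34, and scaling without ribosomal protein, mitochondrial and haemoglobin genes 0.43, 0.26, -0.27 and -0.10.

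After seeing the data 2 alternatives were added. Without the erythroid-like cluster the CML shares were 14.6% with imatinib and 11.2% untreated, with ratios of 0.39 for CML imatinib over CML untreated and -0.11 between the imatinib libraries. Without cells whose name occurs in another library the WT imatinib share was 15.8%, the CML untreated 11.1% and the WT untreated 13.1%, with ratios of 0.40 for CML imatinib over CML untreated, -0.23 between the untreated and -0.10 between the imatinib libraries.

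In granulocyte-monocyte progenitor-like cells the log2 ratio of the share was 0.66 in CML and 0.44 in WT. With values centred within each library before clustering it was 0.37 and 0.27, and with new clusters of cells of 1000 or more UMIs 0.47 and 0.36. At Leiden resolution 1.0 the WT value was 0.42. The lymphoid-primed class, at 0.41 and 0.20, gave no value under these, as fewer than 50 imatinib cells were then in it. Why these values moved was not tested. Depth limits members under 50 CPM, which were not called, and all intervals cover counting error only.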
